A study of Homo sapiens with 4 samples.

Results

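MEIS binding sites at intermediate distance from genes, more than 1 kb and at most 20 kb from a transcription start site (TSS), made up 690 of the 5169 reproducible MEIS sites (13.3%) in human neural stem cells (hNSC). They were defined by position alone, although this part was chosen with earlier results of these data known. The distance ran from the summit of a site, its point of highest signal, to the nearest TSS of a canonical protein-coding transcript in GENCODE 44 on GRCh37. Of the remaining sites, 240 lay within 1 kb of a TSS and 4239 lay beyond 20 kb. The hNSC were untreated, came from a commercial supplier as a single line, and binding was mapped by sequencing of immunoprecipitated chromatin (ChIP-seq) in 2 MEIS ChIP replicates, each called against Input, which is sheared chromatin without immunoprecipitation. The ChIP used a mixture of an antibody that recognises both MEIS1 and MEIS2 (anti-MEISa) and one against MEIS1 (anti-MEIS1), so a site does not tell the proteins apart. The labels list 2 Input samples, which are not analysed here as values of their own. The methods of the study speak of 2 batches of hNSC handled side by side, and the labels do not tie these batches to the replicates, and the number of reads behind the peaks is unknown.

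MEIS1 and MEIS2 belong to the TALE group of homeodomain proteins and recognise the core TGACAG. They bind DNA alone or beside PBX proteins, which are TALE factors too, and the joint complex reads a composite in which a PBX core stands directly before TGACAG. DNA a few kilobases from a promoter holds proximal enhancers, first introns and alternative promoters. In neural stem cells such elements are known to carry SOX factors, TEAD factors and other regulators of proliferation.

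The strongest of these sites are shown first because they show which letters lay under the summits. Strength is the −log10 p of the site in the list of reproducible sites. Each line gives 120 bases of the GRCh37 plus strand centred on a summit, in order of strength, with capitals for TGACAG on either strand (CTGTCA is the same core read from the other strand). The site near ADHFE1, the eighth by strength, is given by its values alone.
RANBP3L, chr5:36312218-36312337: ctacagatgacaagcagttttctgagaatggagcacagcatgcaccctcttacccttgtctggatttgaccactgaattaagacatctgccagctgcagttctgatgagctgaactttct
FBXL7, chr5:15495285-15495404: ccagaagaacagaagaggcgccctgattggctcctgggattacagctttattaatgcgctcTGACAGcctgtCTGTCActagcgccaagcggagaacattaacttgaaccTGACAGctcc
ITGA2, chr5:52293464-52293583: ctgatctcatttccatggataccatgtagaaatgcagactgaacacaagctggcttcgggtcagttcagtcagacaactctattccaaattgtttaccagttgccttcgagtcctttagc
NR2F2, chr15:96888773-96888892: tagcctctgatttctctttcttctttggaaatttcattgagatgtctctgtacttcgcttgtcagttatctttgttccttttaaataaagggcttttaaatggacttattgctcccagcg
PAFAH2, chr1:26320222-26320341: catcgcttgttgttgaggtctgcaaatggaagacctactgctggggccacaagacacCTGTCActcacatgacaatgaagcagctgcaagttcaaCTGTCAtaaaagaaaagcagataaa
ADGRL2, chr1:82274586-82274705: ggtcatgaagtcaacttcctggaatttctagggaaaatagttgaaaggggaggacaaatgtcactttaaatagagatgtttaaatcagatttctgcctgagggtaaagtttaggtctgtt
FGFR3, chr4:1780074-1780193: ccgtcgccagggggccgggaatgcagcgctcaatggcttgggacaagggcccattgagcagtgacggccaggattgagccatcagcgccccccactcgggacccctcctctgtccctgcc
NR2F1, chr5:92935317-92935436: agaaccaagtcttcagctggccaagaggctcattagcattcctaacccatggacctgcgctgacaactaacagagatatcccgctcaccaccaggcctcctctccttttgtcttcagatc
SOX21, chr13:95359061-95359180: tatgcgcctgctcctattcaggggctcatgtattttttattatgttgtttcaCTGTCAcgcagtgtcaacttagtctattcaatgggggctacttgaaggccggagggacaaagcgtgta

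In windows of 500 bp, 5 of these 10 strongest sites held TGACAG and 5 did not. For comparison, TGACAG was in 57.2% of the 690 sites and in 58.3% of all sites. Of the 10, those without it lay near RANBP3L, ITGA2, ADGRL2, FGFR3 and NR2F1. Among these, the sites near ADGRL2 and NR2F1 held the shorter core TGACA within the central 100 bp. Of all 295 sites in this range without TGACAG, 47.8% held TGACA there.

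All 10 strongest sites had a higher fold enrichment over input in replicate 2 than in replicate 1. The strongest lay 10.3 kb upstream of RANBP3L, a Ran-binding protein gene (chr5:36311701-36312984), with fold enrichments of 82.1 in replicate 1 and 177 in replicate 2. The second lay 4.94 kb upstream of FBXL7, which encodes an F-box protein of a ubiquitin ligase, and reached 100.3 and 149. It held 3 copies of TGACAG, the nearest 4 bp from the summit. A site in intron 1 of ITGA2, an integrin subunit gene, reached 61.9 and 109. For scale, the medians over the 690 sites were 6.25 in replicate 1 and 10.5 in replicate 2.

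NR2F1 and NR2F2 encode the COUP-TF orphan nuclear receptors, which pattern the developing cortex, and each had a downstream site among the 10 strongest. The NR2F2 site lay 14.9 kb downstream of the TSS, with fold enrichments of 68.6 and 136. The NR2F1 site lay 16.4 kb downstream, with 37.8 and 92.2. The site 14.9 kb upstream of FGFR3, a fibroblast growth factor receptor gene, had 67.2 and 80.5. The site 5.68 kb downstream of SOX21, a SOX factor gene of neural progenitors, had 29.4 and 81.5, with TGACAG 5 bp from the summit. The sites in intron 1 of PAFAH2 (a phospholipase gene) and intron 1 of ADGRL2 (a latrophilin adhesion receptor gene) and in intron 6 of ADHFE1 (a transhydrogenase gene) had 68.9, 48.9 and 39.2 in replicate 1 and 101.3, 92.5 and 100.6 in replicate 2.

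**Figure D1:**
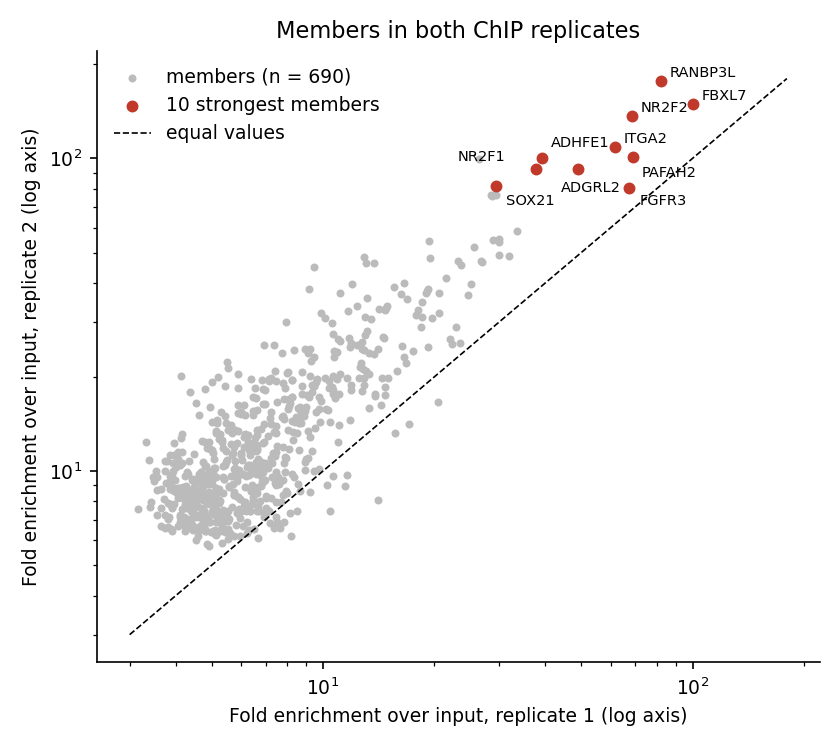
Fold enrichment over input of the 690 sites 1 to 20 kb from a TSS (members) in replicate 1 (x, log axis) and replicate 2 (y, log axis). Red points are the 10 strongest sites, named by their nearest gene, and the dashed line marks equal values. Most points lie above the line. The 10 strongest, ranked by −log10 p, lie toward the upper right, among some other sites of similar fold enrichment.

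Over the 690 sites, the fold enrichment had a lowest value of 3.16 and a highest of 100.3 in replicate 1, and of 5.77 and 177 in replicate 2. It was higher in replicate 2 at 669 sites (97.0%), as it was at 97.5% of the sites beyond 20 kb. The summits of the replicates lay a median of 10 bp apart. A fold enrichment of at least 20 in both replicates was reached by 34 sites, a count not made for the other sites. Of the 100 strongest sites in the whole list, 9 belonged to this distance range, which held 13.3% of all sites. This difference was not tested. The first of the 9 stood at rank 13.

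To compare strength, each site was scored as at or above the median of the whole list. This was the case for 45.7% of the 690 sites (95% CI 42.0 to 49.4) and for 51.3% of those beyond 20 kb (odds ratio 0.797, 95% CI 0.676 to 0.94, adjusted p = 0.0197, Fisher's exact test). Against the sites within 1 kb, 39.6% of which reached the median, the difference did not pass the threshold (odds ratio 1.28, 95% CI 0.941 to 1.75, exact adjusted p = 0.245). It did pass with the TSS of all transcripts (odds ratio 1.37) and of all gene types (1.39), without replicate 1 (1.59) and without replicate 2 (1.82), and within strata of GC content the odds ratio was 1.05. The fold enrichment in replicate 2 was at or above its median in 43.9% of the 690 sites, against 52.0% beyond 20 kb (odds ratio 0.724, 95% CI 0.613 to 0.854, exact adjusted p = 0.000597). Within 1 kb it was at or above its median in 33.3% (odds ratio 1.57, 95% CI 1.14 to 2.16, exact adjusted p = 0.0173). For replicate 1 the shares in the 690 and the distal sites came to 48.1% and 50.8% (odds ratio 0.897, 95% CI 0.761 to 1.06, exact adjusted p = 0.332). The lower fold enrichment relative to distal sites therefore passed the test in replicate 2 and did not pass it in replicate 1. The difference between the replicates was not tested. The merged value is a −log10 p, and by −log10 p the peaks of either replicate alone passed too. Those odds ratios against distal sites were 0.782 without replicate 1 and 0.720 without replicate 2. The merged value against distal sites lost its call with the TSS of all gene types (odds ratio 0.873) and with a lower limit of 2 kb (0.831). All tests formed 1 family of 76 with Benjamini-Hochberg adjustment and a threshold of 0.05, of which 26 passed. Sites are not replicates, so the p-values speak of these 2 libraries alone.

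The next question was how densely MEIS sites lay at each distance. The sequence more than 1 kb and up to 20 kb from a TSS adds up to 546 Mb, which gave 1.26 sites per Mb (95% Poisson interval 1.17 to 1.36, counting error only). Sequence within 1 kb held 6.54 sites per Mb (5.74 to 7.43) and sequence beyond 20 kb held 1.88 (1.83 to 1.94). The density was therefore lower between 1 and 20 kb than on either side of this range, and the intervals did not overlap. It stayed between 1.17 and 1.51 per Mb in the bins of 1 to 2, 2 to 5, 5 to 10 and 10 to 20 kb, whose intervals overlapped. Within 1 kb the upstream side held 10.9 sites per Mb and the downstream side 2.52, whereas from 1 to 20 kb the sides held 1.21 and 1.30. This measure was chosen after seeing the data, and it was not recomputed with the other sets of TSS.

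**Figure D2:**
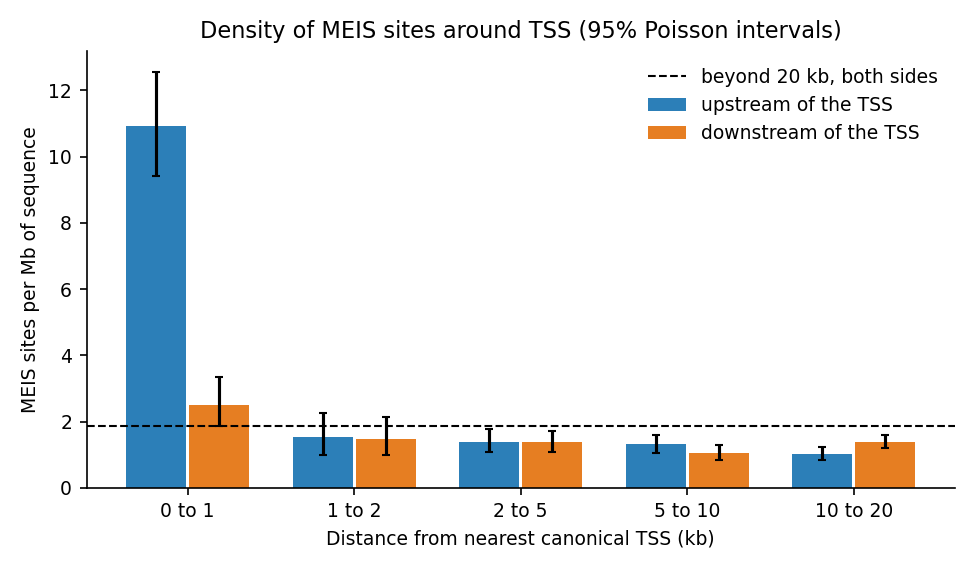
MEIS sites per Mb of sequence (y) by distance from the nearest canonical TSS in kb (x), upstream in blue and downstream in orange, with 95% Poisson intervals. The dashed line is the density beyond 20 kb (1.88 per Mb), and the bars from 1 to 20 kb stand below it.

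By side, 298 of the 690 sites (43.2%) lay upstream of the nearest TSS and the others downstream. The median distance was 9.21 kb. At the inner edge, the nearest site lay 1031 bp upstream of STON1-GTF2A1L, with fold enrichments of 8.49 and 7.43, while the last site outside lay 969 bp downstream of SUGP2, with 4.84 and 9.08. At the outer edge, the last site lay 19978 bp upstream of MACC1, with 6.13 and 7.96, and the first outside lay 20036 bp downstream of CCNG2, with 4.87 and 8.25. None of these 4 sites reached a fold enrichment of 10 in either replicate.

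By annotation, 334 sites (48.4%) lay in introns, 323 (46.8%) outside protein-coding genes, 20 in untranslated exon sequence and 13 in coding exons. Intron 1 of the nearest gene alone held 194 sites (28.1%, 95% CI 24.9 to 31.6), against 7.74% of the sites beyond 20 kb, a share that the distance rule itself bears on. The intronic share was higher than that of the distal sites, which was 42.1% (odds ratio 1.29, 95% CI 1.09 to 1.52, adjusted p = 0.00855, Fisher's exact test). With the TSS of all gene types this turned around, to an odds ratio of 0.777. With the TSS of all transcripts the odds ratio was 4.58, and up to 10 kb (1.12) the call was lost. The distance rule bears on the intronic share as well, because introns and TSS were taken from the same canonical transcripts. A further TSS of a protein-coding gene, from a transcript that is not the canonical one, lay within 1 kb of 68 sites (9.86%).

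The sequence around the summits stood between promoter and distal DNA. The median GC content of the 500 bp windows was 43.8% in the 690 sites, 54.6% within 1 kb and 41.6% beyond 20 kb. A GC content at or above the median of the list was found in 59.4%, 93.3% and 47.4% of the sites, and the 690 differed from the promoter sites (odds ratio 0.105, 95% CI 0.0576 to 0.179, adjusted p = 6.61e-25, Fisher's exact test) and from the distal sites (odds ratio 1.62, 95% CI 1.37 to 1.92, exact adjusted p = 6.4e-08). CpG dinucleotides are depleted in most of the genome and kept in CpG islands, which mark many promoters. A ratio of observed to expected CpG of at least 0.6 was reached by 36 of the 690 sites (5.22%, 95% CI 3.79 to 7.14), by 58.3% within 1 kb (odds ratio 0.0395, 95% CI 0.0251 to 0.0611, exact adjusted p = 1.47e-63) and by 0.944% beyond 20 kb (odds ratio 5.78, 95% CI 3.55 to 9.37, exact adjusted p = 3.63e-11). Of these 36 sites, 8 were among the 68 with a further TSS. Without those 68 the share was 4.50% and the odds ratio against distal sites 4.95. The odds ratio for CpG against distal sites was 2.31 with the TSS of all transcripts, 3.37 with those of all gene types and 2.64 in 200 bp windows, where that against promoter sites was 0.0675. The odds ratio for GC content against promoter sites was 0.293 and 0.222 with these sets of TSS and 0.202 from 2 kb. Each of these passed the threshold.

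TGACAG, the MEIS core, was in 395 of the 690 windows (57.2%, 95% CI 53.5 to 60.9), against 58.3% over all sites. It was in 58.0% of the sites beyond 20 kb (odds ratio 0.969, 95% CI 0.821 to 1.14, adjusted p = 0.816, Fisher's exact test) and in 65.8% within 1 kb (odds ratio 0.695, 95% CI 0.504 to 0.954, exact adjusted p = 0.0618), so neither difference passed the threshold. The difference from the promoter sites did pass it at a scaled IDR score of 1000 (odds ratio 0.598), with the TSS of all gene types (0.730), up to 10 kb (0.657), without replicate 1 (0.656) and without replicate 2 (0.612). It did not with the TSS of all transcripts (0.796), from 2 kb (0.760) or in 200 bp windows (0.696), and within strata of GC content the odds ratio was 0.948. In windows of the same length 2 kb to either side of the 690 summits the share was 27.0% (95% CI 24.7 to 29.4). The copies lay near the summits: 322 of 553 (58.2%) were within 50 bp, with a median distance of 28 bp, compared with 69.3% within 1 kb and 53.8% beyond 20 kb. The shorter TGACA was in the central 100 bp of 69.3% of the 690 sites and in 18.6% of 100 bp windows 2 kb away. Of the 295 sites without TGACAG, 141 (47.8%) held TGACA there, and among distal sites without TGACAG the share was 53.1%. The flanking windows and TGACA were added after seeing the data and are a description with no test.

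**Figure D3:**
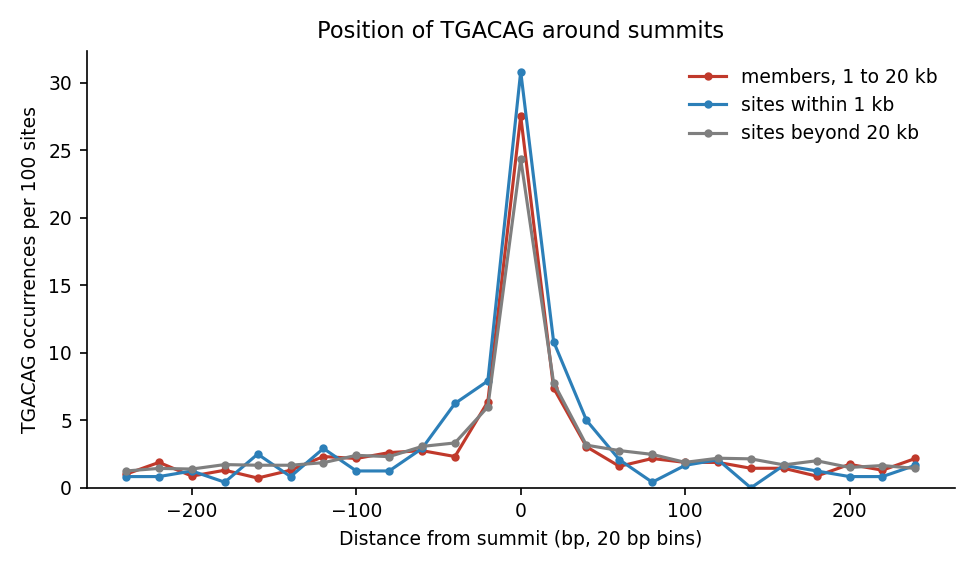
TGACAG occurrences per 100 sites (y) in 20 bp bins by distance from the summit in bp (x), for the 690 sites 1 to 20 kb from a TSS (members, red), sites within 1 kb (blue) and sites beyond 20 kb (grey). Each curve peaks at the summit and falls to a low level within about 50 bp.

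Among themselves, the 690 sites did not differ in TGACAG by strength, side or distance beyond what the test could show. The core was in 57.1% of the stronger and 57.4% of the weaker sites (odds ratio 0.988, 95% CI 0.723 to 1.35, exact adjusted p = 1). It was in 54.7% of upstream and 59.2% of downstream sites (odds ratio 0.833, 95% CI 0.607 to 1.14, exact adjusted p = 0.38), and in 52.6% of sites up to 5 kb and 59.1% of those farther away (odds ratio 0.766, 95% CI 0.542 to 1.08, exact adjusted p = 0.257). At a further TSS it was in 54.4% and elsewhere in 57.6% (odds ratio 0.88, 95% CI 0.517 to 1.51, exact adjusted p = 0.816). The stronger sites made up 51.0% of the upstream and 49.2% of the downstream sites (odds ratio 1.07, 95% CI 0.785 to 1.47, exact adjusted p = 0.816).

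The composite of a PBX core and TGACAG was less frequent in these sites than at promoters. It was in 32 of the 690 windows (4.64%, 95% CI 3.3 to 6.47), against 4.93% over all sites. Within 1 kb of a TSS it was in 17.9% (odds ratio 0.223, 95% CI 0.133 to 0.372, adjusted p = 2.14e-08, Fisher's exact test), and beyond 20 kb in 4.25% (odds ratio 1.1, 95% CI 0.722 to 1.62, exact adjusted p = 0.772). Where it occurred it lay at the summit, since 29 of the 34 copies (85.3%) were within 50 bp, at a median of 4 bp. The PAFAH2 site among the 10 strongest held it. So did a site 6.74 kb upstream of OTX1, a homeobox gene of forebrain patterning, which lies in intron 21 of the neighbouring EHBP1 and had fold enrichments of 7.47 and 19.4. Its composite is shown in capitals in 60 bases of the plus strand, with the TGACAG core at its end.
OTX1, chr2:63271197-63271256: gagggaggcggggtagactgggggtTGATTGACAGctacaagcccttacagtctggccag

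Strings bound by other factors were looked for in the same windows, on either strand. Against the sites within 1 kb, GGAATG of TEAD factors was more frequent in the 690 sites (40.4% and 24.6%, odds ratio 2.08, 95% CI 1.48 to 2.95, adjusted p = 5.88e-05, Fisher's exact test). So were the E-box CAGATG of neurogenic bHLH factors (40.1% against 48 of 240 sites, odds ratio 2.68, 95% CI 1.87 to 3.9, exact adjusted p = 8.42e-08), TGANTCA of AP-1 (18.3% and 9.17%, odds ratio 2.21, 95% CI 1.36 to 3.75, exact adjusted p = 0.00326) and AGGTCA of nuclear receptors (37.5% and 25.4%, odds ratio 1.76, 95% CI 1.26 to 2.49, exact adjusted p = 0.00326). Strings typical of promoters were less frequent. The GC box GGGCGG was in 11.7% against 63.3% (odds ratio 0.0773, 95% CI 0.0534 to 0.111, exact adjusted p = 1.14e-50, and an odds ratio of 0.149 within strata of GC content), CCAAT in 49.6% against 67.1% (odds ratio 0.483, 95% CI 0.35 to 0.663, exact adjusted p = 2.29e-05), CCGGAAGT of ETS factors in 0.87% against 4.17% (odds ratio 0.202, 95% CI 0.0597 to 0.622, exact adjusted p = 0.00825) and the cAMP response element TGACGTCA in 0.29% against 2.92% (odds ratio 0.0971, 95% CI 0.00977 to 0.514, exact adjusted p = 0.00698). In windows of 200 bp AP-1 (odds ratio 1.80), ETS (0.228) and the cAMP response element (0.115) no longer passed, the nuclear receptor string rose to an odds ratio of 3.08, and at the scaled IDR score of 1000 ETS (0.265) and the nuclear receptor string (1.49) did not. The cAMP response element rested on 2 of the 690 sites. Without replicate 1 no site in this range held it, at the score of 1000 its odds ratio was 0.0439 and within strata of GC content 0.155. The ETS odds ratio was 0.0616 up to 10 kb, and that of the GC box 0.128 with the TSS of all transcripts.

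Against the sites beyond 20 kb, 2 of 16 consensuses passed the test. TAATTA, bound by LIM and other homeodomains, was less frequent (14.5% and 19.2%, odds ratio 0.714, 95% CI 0.564 to 0.897, adjusted p = 0.0116, Fisher's exact test). It lost its call in 200 bp windows, at a scaled IDR score of 1000, with either wider set of TSS and with a limit of 10 kb, where the odds ratio stayed between 0.764 and 0.926. Within strata of GC content the odds ratio of TAATTA was 0.851. The GC box was more frequent (11.7% and 6.39%, odds ratio 1.95, 95% CI 1.48 to 2.54, exact adjusted p = 1.99e-05), and its odds ratio fell from 1.95 to 1.17 within strata of GC content. ACAANGG of SOX factors was in 33.9% of the 690 and 36.5% of the distal sites (odds ratio 0.894, 95% CI 0.751 to 1.06, exact adjusted p = 0.338), and TGTTTAC of FOX factors in 7.83% and 7.74% (odds ratio 1.01, 95% CI 0.736 to 1.37, exact adjusted p = 0.965). A string match is not a bound factor.

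**Figure D4:**
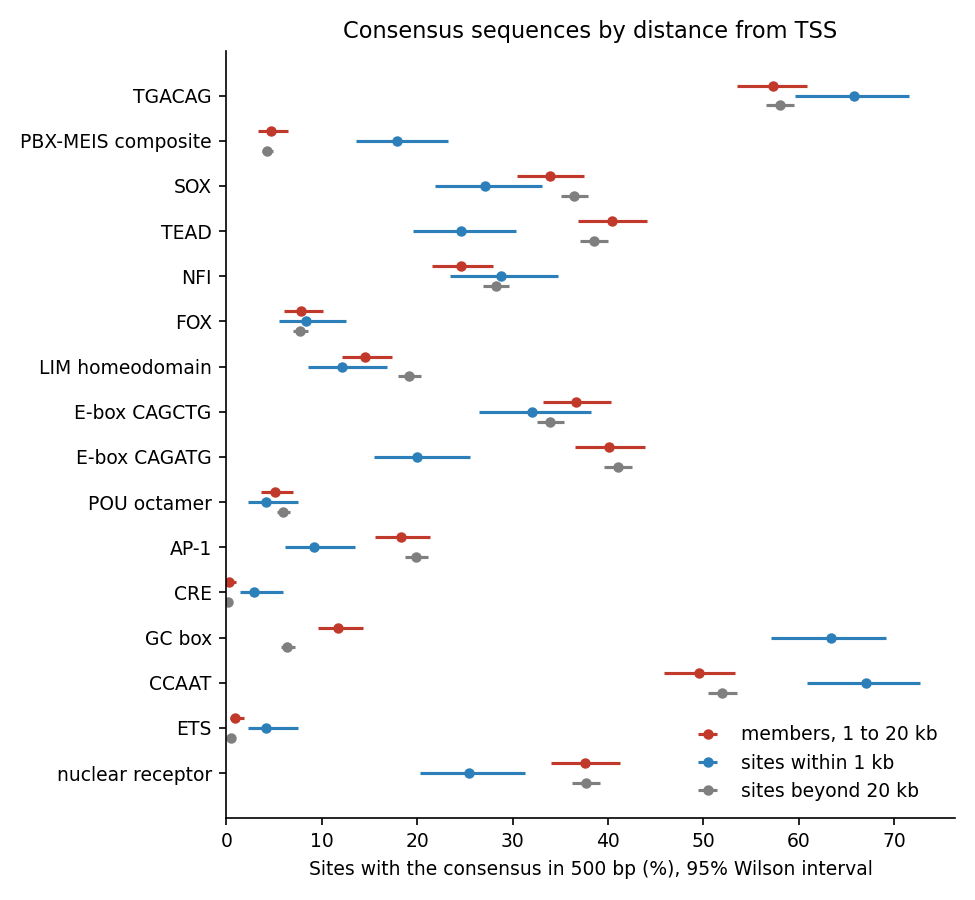
Share of sites with each consensus in the 500 bp window (x, %, 95% Wilson intervals) for the 690 sites 1 to 20 kb from a TSS (members, red), sites within 1 kb (blue) and sites beyond 20 kb (grey). Red and grey points lie close together. The blue points stand apart for the PBX-MEIS composite, TEAD, CAGATG, AP-1, the GC box, CCAAT and the nuclear receptor string. At low shares they also differ for ETS and the cAMP response element (CRE).

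The 690 sites were nearest to 650 genes, 3.32% of the 19553 protein-coding genes with a canonical TSS. A nearest gene is a label of position and not a measured target. One site was counted for 613 genes, 2 for 34 genes and 3 for TLE3, EPHA4 and CEMIP2. TLE3 encodes a Groucho corepressor, and its sites 1.86, 3.68 and 13.6 kb upstream had fold enrichments in replicate 2 of 48.9, 9.65 and 23.1. EPHA4, an ephrin receptor gene, had its 3 sites in intron 3, with 26.9, 8.93 and 44.9 in replicate 2. CEMIP2, which encodes a transmembrane protein linked to hyaluronan degradation, had 3 sites in intron 1, with 10.7, 9.64 and 14.6.

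Lists of neural, signalling and cell cycle genes, and a list of housekeeping genes for comparison, were set beside this background. The share of genes nearest to a site was above 3.32% in 15 of the 16 lists, and in 12 of them the lower end of the 95% interval was too. The housekeeping list was the exception. No list was tested, and the lists were chosen with earlier results of these data known, so these counts are a description. To allow for the spacing of genes, the lists were also scaled by the sequence 1 to 20 kb from their TSS, where all genes together had 1.26 sites per Mb. By this measure 14 of the 16 lists lay above all genes, and in 11 of them the lower end of the interval did. The bHLH and ID list was below, with 1.17 sites per Mb (95% CI 0.0296 to 6.51) from 1 site. So was the housekeeping list, which had no site (upper end of the interval 4.76 per Mb). Both intervals include the value of all genes. The lower end for Notch was 0.979.

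SOX genes, which encode HMG-box factors of neural progenitors, stood first with 5 of 14 (35.7%) and 12.1 sites per Mb (95% CI 4.43 to 26.2). Besides SOX21 they were SOX8, with a site 16.0 kb downstream at fold enrichments of 30.0 and 54.1, SOX2, SOX6 and SOX13. The SOX2 site, 10.3 kb downstream of this key gene of neural stem cell identity, had 24.7 and 36.5 and held 3 copies of TGACAG. The sites near SOX6 and SOX13 were weak, with 5.55 and 4.81 in replicate 1.

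FGF and EGF receptor signalling, which drives proliferation of cultured neural stem cells, followed with 8 of 26 genes (30.8%) and 10.6 sites per Mb (5.09 to 19.5). FGFR3 and ERBB4 are receptors, and the ERBB4 site in intron 1 had 4.73 and 6.81. The feedback inhibitors SPRED1, SPRED2, SPRY1, SPRY2 and DUSP6 made up most of the rest. The SPRED1 site, 1.61 kb upstream, had 28.9 and 54.8, and the SPRY2 site, 18.8 kb upstream, had 30.0 and 49.1. Both held TGACAG within 3 bp of the summit.

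In the Hedgehog list 5 of 18 genes (27.8%) were nearest to a site, at 10.6 sites per Mb (3.89 to 23.1). They were the receptor PTCH1, the decoy receptor HHIP, the ligand release protein DISP1 and the zinc finger genes ZIC4 and ZIC5. The strongest lay at ZIC4, with fold enrichments of 12.6 and 22.2, followed by intron 1 of HHIP, with 9.56 and 19.3, and intron 2 of PTCH1, with 6.66 and 10.9. These are moderate values beside those near SPRED1 or SOX2.

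Nuclear receptors had 4 of 20 genes, namely NR2F1, NR2F2, ESRRG and THRA. The ESRRG site had 6.94 and 14.2. Among markers of neural stem cells and radial glia, 5 of 25 were nearest to a site. A site 3.89 kb upstream of VCAN, a matrix proteoglycan gene, had 23.6 and 45.8, and one in intron 1 of CDH2, the N-cadherin gene, had 12.7 and 24.6. SOX2, NES and VIM were the others.

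NFI, POU and FOX neural factors had 3 of 17 genes (17.6%), with a site 6.90 kb upstream of POU3F3 at 8.12 and 17.1 and sites near POU2F1 at 7.10 and 13.0 and at 4.52 and 8.06. The cell cycle list had 4 of 24 (16.7%), among them CDK6 (6.87 and 9.93), MYCL (5.38 and 10.4) and MYCN (5.11 and 7.54). Notch had 3 of 20 (15.0%), all weak: DTX4 at 6.13 and 7.76, NOTCH2 at 4.68 and 7.14 and the ligand DLL1 at 4.44 and 7.14. Hippo and TEAD also had 3 of 20, with sites on both sides of CCN1 at 8.90 and 15.0 upstream and 7.95 and 11.0 downstream, and one in intron 2 of TEAD1 at 8.75 and 14.2. CCN1 is a known target gene of YAP and TEAD.

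BMP and TGF-beta had 4 of 32 genes (12.5%). The ligand gene BMP7 had a site in intron 1 at 12.4 and 25.2, the coreceptor gene RGMB one upstream at 9.13 and 13.4 and the corepressor gene SKI one in intron 1 at 6.55 and 12.7. Axon guidance had 5 of 41 (12.2%), with EPHA4, a site in intron 1 of the ephrin gene EFNA5 at 10.9 and 24.0 and one 12.5 kb upstream of SEMA3A, a secreted repellent, at 13.9 and 17.6. Adhesion had 5 of 46 (10.9%), with ADGRL2, CDH2 and a site upstream of the protocadherin gene PCDH18 at 15.0 and 19.8.

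The shares were lowest for homeobox patterning genes (3 of 38, 7.89%, with OTX1, NKX2-2 at 6.65 and 7.43 and ZFHX3 at 4.15 and 6.99), Wnt (3 of 43, 6.98%, with LGR4 at 4.85 and 7.18 and 2 sites at SFRP1 at 4.77 and 8.53 and at 4.11 and 7.15) and bHLH and ID factors (1 of 25, 4.00%). The latter was ID4, whose last exon held a site in untranslated sequence at 10.6 and 27.4. None of 30 housekeeping genes was nearest to a site in this distance range (upper end of the interval 11.4%).

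**Figure D5:**
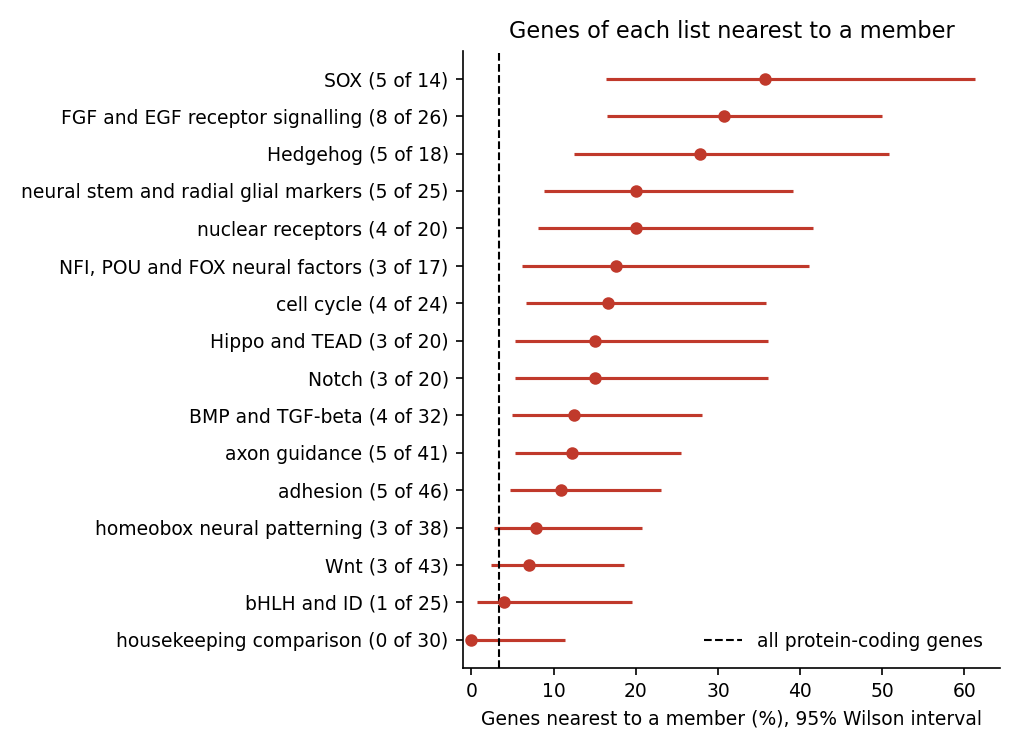
Share of the genes of each list that are nearest to a site 1 to 20 kb from their TSS (x, %, 95% Wilson intervals), with the number of genes in brackets. The dashed line is the share over all protein-coding genes (3.32%), and 15 of 16 lists lie to its right.

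Sites at the promoter of the nearest gene were counted from the peaks of each replicate. A peak within 1 kb of the TSS in both replicates, other than the site itself, was sought. Such a peak was found for 80 of the 690 sites (11.6%, 95% CI 9.42 to 14.2). The share of all protein-coding genes was 9.1%, which counts genes rather than sites and leaves out no peak. Among the sites beyond 20 kb the share was 16.9% (odds ratio 0.643, 95% CI 0.496 to 0.825, adjusted p = 0.00168, Fisher's exact test). Several distal sites can share a gene, and with each gene counted once, by its nearest site beyond 1 kb, the shares were 11.4% and 12.2% (odds ratio 0.925, unadjusted p = 0.627, Fisher's exact test). With an upper limit of 10 kb (0.686) and without replicate 2 (0.916) the call was lost too, and with the TSS of all gene types the odds ratio was 1.14. Of the 650 genes, 24 had a reproducible site within 1 kb as well, against 240 of all 19553 protein-coding genes. This difference was not tested.

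Another reproducible site within 10 kb was found for 62 of the 690 sites (8.99%), 5.83% of the promoter sites (odds ratio 1.59, 95% CI 0.861 to 3.14, adjusted p = 0.268, Fisher's exact test) and 12.2% of the distal sites (odds ratio 0.711, 95% CI 0.53 to 0.94, exact adjusted p = 0.0446). The difference from the promoter sites passed without replicate 2 (odds ratio 2.04), and within 50 kb the odds ratio was 1.01. The difference from the distal sites lost its call when replicate 1 was left out (odds ratio 1.01) and when replicate 2 was (odds ratio 0.755). It was also lost at a scaled IDR score of 1000, with either wider set of TSS and with either other limit, where the odds ratio stayed between 0.706 and 0.892.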

How the data were processed

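Binding of MEIS1/2 in hNSC was profiled by ChIP-seq in 2 ChIP replicates with Input. Per the design text, reads of 36 bp were trimmed with cutadapt 1.16, mapped to GRCh37 with Bowtie2 2.3.0, filtered at a mapping quality of 30 with SAMtools 1.2 and cleared of duplicates with Picard 2.15.0, so that sites in repeats can be missed. Per replicate, the authors called peaks with MACS2 at a p-value of 0.01 and merged them with IDR 2.0.3, which keeps peaks whose ranks hold in both replicates. For every peak the deposited files hold its fold enrichment (a ratio to input) with −log10 p and −log10 q. For every site the deposited list holds a scaled score from IDR, a −log10 p and, among other values, the summit, and 8 per-replicate columns of it were not used. Its lowest scaled score of 830 is an IDR of 0.01.

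A site's value in each replicate was that of the strongest overlapping peak. Shares were compared by two-sided Fisher's exact tests with conditional odds ratios in SciPy 1.17.1, with Wilson 95% intervals and Benjamini-Hochberg adjustment, and the procedure was tested on simulated data. Intervals cover counting error only. The members and the gene lists were chosen with earlier results of these data known. A further gene list is not reported here. Named sites are the 10 strongest, up to 3 per list, those of genes with 3 sites and those at the limits. Genes of the lists without values per site, and members of a list beyond the third, were named after their values were seen. Sequences came from GRCh37. Alternatives changed windows, score, TSS set, distances, GC strata and replicates. Leaving out a replicate replaced the reproducible list with the 5169 strongest peaks of the other replicate. The members then numbered 662 without replicate 1 and 716 without replicate 2.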

Additional observations from a re-analysis of the deposited data

How the results depend on the processing

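Of 370 values recomputed under an alternative, 291 kept their direction and call, or stayed within their interval. For results past the threshold the numbers were 181 the same, 34 no longer past it, 2 moved and 3 reversed. The higher GC content, the CpG difference from distal and promoter sites and the lower composite share than at promoters kept their calls under every alternative run, although GC against promoter sites moved from 0.105 to 0.293 and CpG against distal sites from 5.78 to 2.31 with all transcripts. The number of members was 1443 with the TSS of all transcripts, 1708 with those of all gene types and 376 up to 10 kb. The following values are odds ratios against all other sites unless a group is named, except that the promoter peak is always compared with distal sites.

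Strength lost its call with all transcripts (0.899), all gene types (0.916) and a lower limit of 2 kb (0.860). CpG did not pass in the main setting (1.31, adjusted p = 0.294, Fisher's exact test). It reversed and passed with all transcripts (0.437) and all gene types (0.476). Without replicate 1 it passed in the main direction (1.62). The cause of these changes was not tested. The promoter peak lost its call up to 10 kb (0.686) and with each gene once (0.925), and reversed with all gene types (1.14). A neighbouring site within 50 kb passed the threshold (0.637). Introns against distal sites reversed with all gene types (0.777) and lost the call up to 10 kb (1.12). The count of other consensuses that passed was 1, and 0 with 200 bp windows, a scaled IDR score of 1000 (an IDR of 0.004 or less), all transcripts or 10 kb.

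Values that never passed the threshold crossed 1 as follows. TGACAG gave 1.02 in 200 bp windows and 1.02 with all transcripts, and against distal sites 1.04 and 1.05. The composite gave 1.03 in 200 bp windows. Against distal sites FOX gave 0.953 in 200 bp windows and 0.957 with all gene types, and SOX 1.02 with all transcripts. Within the members, TGACAG by strength gave 1.01 at the score of 1000, 1.02 with all gene types, 1.01 from 2 kb and 1.04 up to 10 kb, TGACAG at a further TSS 1.05 with all gene types and 1.24 up to 10 kb, and strength by side 0.968 with all gene types.

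Leaving out a replicate gave the following ranges, from lowest to highest: 0.853 to 1.04 for the composite, 1.14 to 1.62 for CpG, 0.791 to 1.02 for a neighbouring site, 0.755 to 1.01 for a neighbouring site against distal sites, 0.711 to 0.916 for the promoter peak, 0.945 to 1.41 for strength by side within the members and 0.964 to 1.08 for TGACAG by strength within the members. No paired analysis was possible because only ChIP carries peak values and the tests compare sites, not samples. Depth is unknown, so a site that was not called cannot be read as unbound.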
